A study of Mus musculus with 6 samples.

Results

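The Hox genes encode homeodomain transcription factors that set position along the body axis, and they lie in 4 clusters on different chromosomes. All 37 Hox genes that had a row of their own on the array were described here, out of 19937 genes measured in all. They were chosen by name: a row had to name exactly 1 gene, with the symbol Hoxa, Hoxb, Hoxc or Hoxd and a number, and each gene had a single such row. The family was taken up because an earlier account of these data showed Hoxa5 lower in every TMP195 tumour, so the values of Hoxa5 in this comparison are a description and are not tested. Hoxb8 shared its row with Hoxb7 and was not used. The members were 10 genes of the Hoxa cluster on chromosome 6, 9 of Hoxb on chromosome 11, 9 of Hoxc on chromosome 15 and 9 of Hoxd on chromosome 2.

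Genes with the same number in different clusters are paralogues, copies of one ancestral gene, and low numbers are expressed towards the head and high numbers towards the tail. HOX proteins bind DNA together with cofactors of the TALE homeodomain class, the PBX, MEIS and PKNOX proteins. Polycomb and Trithorax complexes keep the clusters silent or active, retinoic acid induces the genes at their low-numbered ends, and neighbouring genes of a cluster are often expressed together. In the mammary gland Hox genes take part in forming the bud in the embryo and in the growth of the gland during pregnancy.

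Gene expression had been measured on Affymetrix arrays in 1 whole tumour from each of 6 female FVBN mice carrying the MMTV-PyMT transgene, whose oncogene, polyoma middle T, is under a viral promoter active in mammary epithelium. Tumour burden was assessed at an age of 75 to 90 days. One group of 3 received TMP195, an inhibitor of the class IIa histone deacetylases, at 50 mg/kg once a day by intraperitoneal injection, and the other 3 received the vehicle, DMSO. The sources used here give 5 days of dosing in one place and 2 weeks in another. Values are log2 intensities, and a difference is TMP195 minus vehicle on that scale.

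The samples were whole tumours, so fewer cells of a type and less RNA per cell cannot be told apart. The luminal epithelial genes Epcam, Krt8 and Krt18, which define the epithelium of these tumours, averaged 10.08, 10.72 and 11.07. Medians of the 6 arrays lay between 44.8 and 46.4 on the linear scale. A pair of tumours stood apart from the rest: 150 genes were more than 2-fold above every other tumour in TMP195 tumour 2 and 60 in vehicle tumour 2, against 2 to 12 in the other 4 tumours. Skeletal muscle markers, of which 10 of 10 were measured, averaged 4.57, 4.49 and 4.99 in TMP195 tumours 1 to 3, against 4.55, 7.95 and 4.45 in vehicle tumours 1 to 3. Adipocyte markers, 9 of 10 measured, averaged 7.82, 4.64 and 5.77 in the TMP195 tumours, against 6.93, 5.75 and 8.56 in the vehicle tumours.

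Array rows differ in how brightly they report a transcript, so levels were not compared between genes. To mark rows that could not be told from background, each member was set against olfactory receptor genes, which a mammary tumour is not known to use. Of the 37 Hox genes 20 had a mean at or below 3.99, the 95th percentile of the means of 1027 olfactory receptor genes, and are called dim here. That is 54.1% of Hox genes, where 29.6% of all genes were dim. Genes of the Y chromosome, which female mice lack, ranged from 0.88 to 5.44, and 6 of 7 were dim. The exception was Sry at 5.44, above the means of Hoxa4, Hoxa6 and Hoxa7, which were 4.55, 4.72 and 5.13. Of all Hox genes only Hoxb2, Hoxb3 and Hoxc8 had means above that of Sry, at 6.99, 6.47 and 5.56. A row that is not dim can therefore still be background. The 17 Hox genes above the threshold were Hoxa4, Hoxa6 and Hoxa7, every measured Hoxb gene but Hoxb13, Hoxc5, Hoxc6, Hoxc8 and Hoxc9, and Hoxd8 and Hoxd11. Members of groups 12 and 13, the tail end of each cluster, were dim in every cluster in which they were measured.

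**Figure D1:**
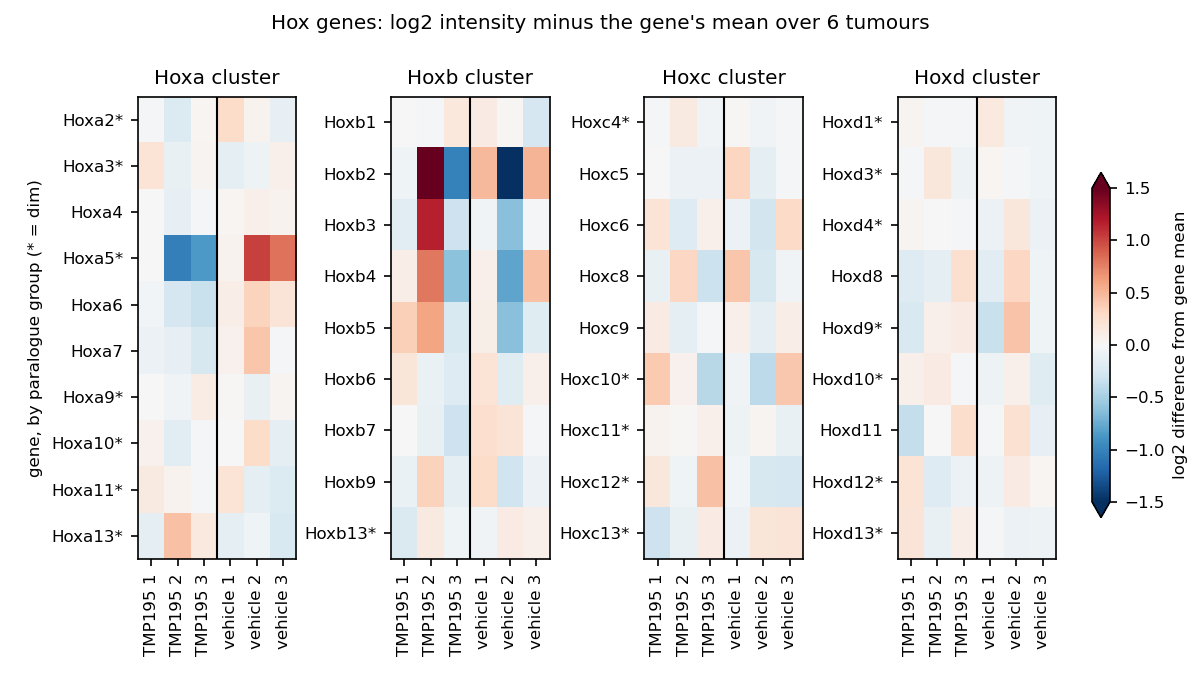
Each cell shows a gene's log2 intensity in one tumour minus its mean over the 6 tumours, by cluster and paralogue group, with TMP195 tumours left of the line and vehicle tumours right of it. Asterisks mark the 20 dim genes, and the scale ends at 1.5 in either direction. Hoxa5 and Hoxb2 to Hoxb5 vary most, with ranges of 1.22 to 3.11.

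Promoter sequences from RefSeq (GRCm38.p6) covered 21 of the 37 genes. Those of Hoxa5, Hoxa6 and Hoxa7 are shown because these neighbours, with Hoxa4, were lower in every TMP195 tumour, as described next. Each window runs from 250 bases before the gene's start to 50 bases after it, 5′ to 3′ along the gene, on the minus strand of chromosome 6: chr6:52204538-52204837 for Hoxa5, chr6:52208623-52208922 for Hoxa6 and chr6:52218524-52218823 for Hoxa7. Capitals mark matches on either strand to the motifs named below.
Hoxa5 promoter: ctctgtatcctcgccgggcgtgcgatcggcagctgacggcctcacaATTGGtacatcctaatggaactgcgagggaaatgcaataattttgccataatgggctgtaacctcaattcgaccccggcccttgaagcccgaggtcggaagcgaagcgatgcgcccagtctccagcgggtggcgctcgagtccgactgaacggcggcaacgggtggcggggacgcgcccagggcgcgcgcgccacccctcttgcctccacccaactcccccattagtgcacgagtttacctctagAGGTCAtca
Hoxa6 promoter: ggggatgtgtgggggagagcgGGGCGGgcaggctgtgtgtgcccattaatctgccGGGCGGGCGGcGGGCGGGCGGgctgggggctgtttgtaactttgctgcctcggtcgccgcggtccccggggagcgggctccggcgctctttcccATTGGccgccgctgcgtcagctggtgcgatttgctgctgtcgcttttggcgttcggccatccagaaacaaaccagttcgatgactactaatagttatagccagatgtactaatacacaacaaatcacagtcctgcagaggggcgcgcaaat
Hoxa7 promoter: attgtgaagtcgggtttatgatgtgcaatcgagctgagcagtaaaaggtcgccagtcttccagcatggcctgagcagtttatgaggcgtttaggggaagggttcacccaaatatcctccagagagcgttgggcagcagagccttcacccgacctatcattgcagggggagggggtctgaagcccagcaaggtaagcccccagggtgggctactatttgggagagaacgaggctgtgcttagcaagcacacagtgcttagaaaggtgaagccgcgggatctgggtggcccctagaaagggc
The motifs searched were the TATA box (TATAAA), the CCAAT box (CCAAT), the GC box (GGGCGG), the E-box (CACGTG), a joint HOX and PBX site (TGATNNAT), a nuclear receptor half-site (AGGTCA), a homeodomain core (TAATTA) and the MEF2 site. The last was included because class IIa deacetylases bind MEF2 factors.

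The Hoxa5 window held 1 CCAAT box in reverse, starting at base 47, and 1 nuclear receptor half-site starting at base 292. The Hoxa6 window held 5 GC boxes, starting at bases 22, 56, 60, 67 and 71, of which the last 4 overlapped in pairs, and 1 CCAAT box in reverse starting at base 150. No motif of the set was found in the Hoxa7 window. A CCAAT box stood in 14 of the 21 Hox genes with a window, and in 37.4% of all 32851 windows of the table. A GC box stood in 9 of the 21, and in 35.7% of all windows. Matches to the half-site were found in 7 of the 21 and in 16.3% of all windows. The MEF2 site stood in 1 of the 21 and in 3.19% of all windows, and the E-box in 5 and 7.15%. The TATA box stood in 3 and 13.6%, the HOX and PBX site in 3 and 8.85%, and the homeodomain core in 1 and 5.29%. A Hox gene was counted if any of its windows matched, so these counts and the shares of windows are not in like units. The Hoxa5, Hoxa6 and Hoxa7 windows had 29, 26 and 9 CG pairs, against a median of 7 over all windows. A match is a run of letters and not a bound site, and the windows were not measured on the array.

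In Hoxa4, Hoxa5, Hoxa6 and Hoxa7 every value of the TMP195 tumours lay below every value of the vehicle tumours, in Hoxa4 by a margin of only 0.020. These 4 genes lie next to each other in the middle of the Hoxa cluster, and no other Hox gene had groups that did not overlap. The 4 make up 10.8% of the Hox genes, beside 3.21% of all genes that were lower without overlap. No Hox gene was higher without overlap, beside 3.47% of all genes, and 6.68% of all genes were without overlap in either direction. Hoxa5 itself prompted the choice of the family, and without it 3 of 36 Hox genes, 8.33%, were lower without overlap. None of the differences passed the test over all genes.

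Hoxa5 patterns the lower neck and upper thorax, is needed for lung growth in mice, and in human breast cells its product activates the p53 gene. Its log2 intensity was 3.73, 2.70 and 2.86 in TMP195 tumours 1, 2 and 3, against 3.78, 4.76 and 4.54 in vehicle tumours 1, 2 and 3. The tumours numbered 1 of both groups lay side by side, 0.054 apart, and the separation came from the other 4 tumours. The means were 3.10 ± 0.55 in TMP195 tumours and 4.36 ± 0.51 in vehicle tumours (SD, n = 3 each), a difference of -1.26 ± 0.34 (SE), which is 2.40-fold lower. On the linear scale this was 13.2, 6.50 and 7.28 in the TMP195 tumours, against 13.8, 27.1 and 23.3 in the vehicle tumours.

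Hoxa5 was among the dim genes. All 3 TMP195 values and 1 of the 3 vehicle values were at or below 3.99. An alternative added once the values were known raised every value below that threshold to it, and the difference was then -0.44 and the groups touched. With 16 added to the linear values before taking logs it was -0.57. Leaving out each tumour in turn gave differences from -1.58 to -1.06, and leaving out both tumours numbered 2 gave -0.86.

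Hoxa6 lies next to Hoxa5 and acts in patterning the thorax. It was 4.68, 4.47 and 4.39 in TMP195 tumours 1 to 3, against 4.83, 5.06 and 4.92 in vehicle tumours 1 to 3. The nearest values of the groups were 0.15 apart, and the row was not dim. The means were 4.51 ± 0.15 and 4.93 ± 0.12 (SD, n = 3 each) in TMP195 and vehicle tumours, a difference of -0.42 ± 0.11 (SE). Its unadjusted p in limma was 0.0079 and its p adjusted over all genes was 1.00. The difference lay between -0.50 and -0.36 when any 1 tumour was left out, and it was -0.26 with 16 added before taking logs.

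Hoxa7, which acts in the thoracic region too, was 5.04, 5.01 and 4.89 in TMP195 tumours 1 to 3, against 5.20, 5.55 and 5.10 in vehicle tumours 1 to 3. The groups were 0.060 apart, and vehicle tumour 2 was the highest of the 6. The difference was -0.30 ± 0.13 (SE), and -0.17 without vehicle tumour 2. Hoxa4 was 4.56, 4.44 and 4.52 in TMP195 tumours, against 4.58, 4.62 and 4.61 in vehicle tumours. Its difference of -0.10 ± 0.084 (SE) was about as large as its standard error. Without TMP195 tumour 2 it was -0.063.

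**Figure D2:**
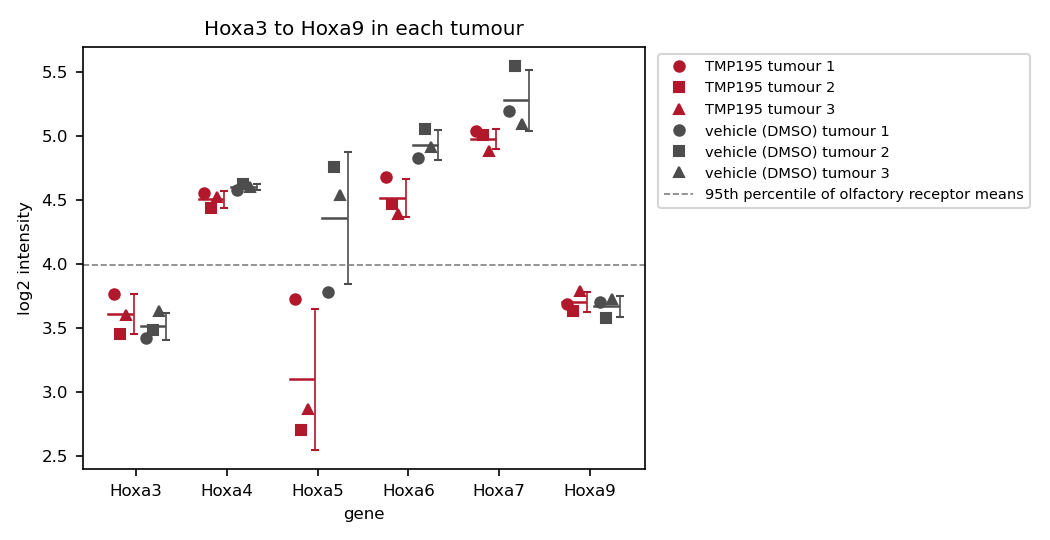
Log2 intensity of Hoxa3 to Hoxa9 in each tumour, with TMP195 in red left of vehicle in grey, bars at the group mean and whiskers of 1 SD (n = 3). The dashed line is the 95th percentile of olfactory receptor means, 3.99. Hoxa4 to Hoxa7 do not overlap between groups, while Hoxa3 and Hoxa9 on either side do.

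The genes on either side of the run did not separate the groups. Hoxa3 differed by 0.09 ± 0.11 (SE) and Hoxa9 by 0.03 ± 0.09, and the values of both overlapped between groups. The other 6 Hoxa genes lay between -0.14 and 0.29, with a median of 0.06, and all 6 were dim. Outside the cluster, the 3 nearest measured protein-coding genes on each side were compared as well. Skap2, an adaptor protein of Src-family kinase signalling beside the head end of the cluster, was 8.02, 8.07 and 8.03 in TMP195 tumours, against 8.17, 8.55 and 8.20 in vehicle tumours. It was lower in every TMP195 tumour by a mean of -0.27. The other 5 flanking genes overlapped and differed by 0.047 to 0.068. Over all 4 clusters, 1 of 24 flanking genes had groups that did not overlap, a share below the 6.68% of all genes.

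Measured genes were then put in genome order and read in windows of 4 neighbours, a size chosen after the Hoxa values were seen. Of 19784 windows, 1 held genes that were all lower in every TMP195 tumour, or 0.00505%, and it was the window from Hoxa4 to Hoxa7. In 0 windows were all 4 genes higher without overlap. Because Hoxa5 was known to be lower beforehand, this count describes where the run lies and is no test of it.

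**Figure D3:**
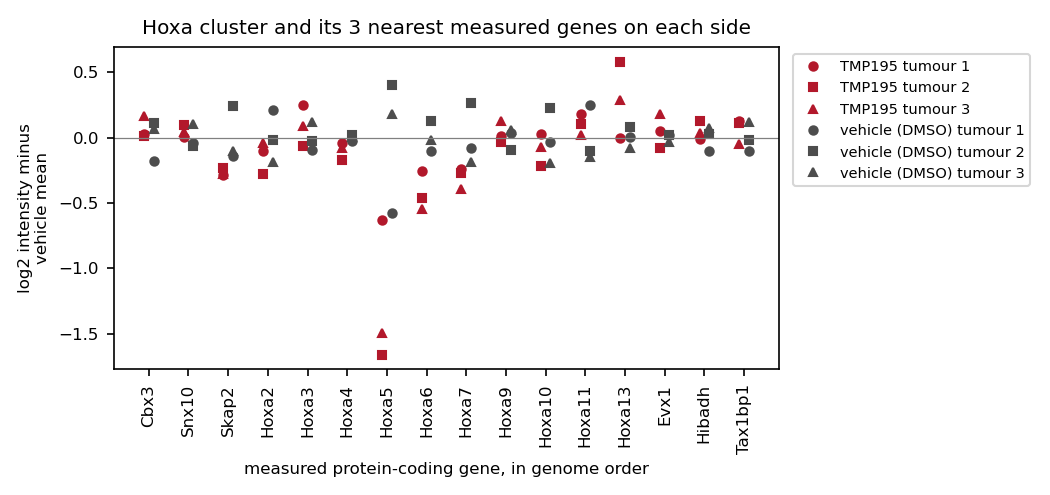
Log2 intensity minus the vehicle mean of each gene, for the Hoxa cluster and its 3 nearest measured protein-coding genes on each side, in genome order. Red points are TMP195 tumours and grey points vehicle tumours. Hoxa4 to Hoxa7 and Skap2 have every red point below every grey point.

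Markers of other cell types differed between these tumours as well. All 9 measured adipocyte and all 10 skeletal muscle markers had lower means in the TMP195 tumours, with the levels given above. Vehicle tumour 2 was the highest of the 6 in Hoxa4, Hoxa5, Hoxa6 and Hoxa7 and held the skeletal muscle transcripts, with a muscle mean of 7.95. Vehicle tumours 1 and 3 were also above every TMP195 tumour in these Hoxa genes, at muscle means of 4.55 and 4.45. Fibroblast markers, 9 of 9 measured, averaged 9.02, 8.16 and 8.60 in the TMP195 tumours, against 8.77, 8.39 and 9.18 in the vehicle tumours. Luminal epithelial markers, 7 of 7 measured, averaged 10.44, 10.41 and 10.32 in the TMP195 tumours, against 10.29, 10.45 and 10.44 in the vehicle tumours. Macrophage markers had lower means in 7 of 7 genes, although Adgre1 differed by only -0.00015. They averaged 8.01, 8.01 and 7.83 in the TMP195 tumours, against 8.08, 8.03 and 8.21 in the vehicle tumours. Myoepithelial markers had lower means in 6 of 7 genes and averaged 6.87, 6.59 and 6.85 in the TMP195 tumours, against 6.97, 6.68 and 7.06 in the vehicle tumours. Endothelial markers had higher means in 6 of 6 genes and averaged 7.02, 7.01 and 6.86 in the TMP195 tumours, against 6.86, 6.62 and 6.93 in the vehicle tumours. Pericyte markers were lower in 2 and higher in 3 genes, and T cell markers lower in 3 and higher in 1. B cell markers were lower in 1 and higher in 1, and skin keratinocyte markers lower in 3 and higher in 2. Of all 19937 genes 10074 were lower and 9863 higher. No marker passed the test over all genes. The part of these cell types in the Hoxa result was not tested.

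The Hoxb cluster had the largest median range over the 6 tumours of the 4 clusters, 0.64, beside 0.42 over all genes. The groups overlapped in each of its genes. Hoxb2, Hoxb3, Hoxb4 and Hoxb5, the neighbours near the head end of the cluster, were all highest in TMP195 tumour 2 and all lowest in vehicle tumour 2. With Hoxa5 they were the only Hox genes whose range over the 6 tumours reached 1 on the log2 scale, 5 of 37 or 13.5%, beside 7.64% of all genes.

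Hoxb2, a hindbrain patterning gene, was 6.92, 8.58 and 5.98 in TMP195 tumours 1 to 3, against 7.47, 5.48 and 7.50 in vehicle tumours 1 to 3. Its range of 3.11 was the widest of all Hox genes, and TMP195 tumour 2 was more than 2-fold above every other tumour. The group means were 7.16 ± 1.32 in TMP195 tumours and 6.82 ± 1.16 in vehicle tumours (SD, n = 3 each), so the difference of 0.34 ± 0.77 (SE) was smaller than the spread within either group.

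Hoxb3 was 6.30, 7.63 and 6.16 in TMP195 tumours, against 6.42, 5.84 and 6.45 in vehicle tumours. Hoxb4, known for expanding blood stem cells when raised in them, was 5.37, 6.06 and 4.65 in TMP195 tumours, against 5.34, 4.48 and 5.71 in vehicle tumours. Hoxb5 was 4.61, 4.86 and 4.03 in TMP195 tumours, against 4.35, 3.64 and 4.08 in vehicle tumours. In each of these genes the groups overlapped, and the 2 tumours numbered 2 formed the extremes. The differences were 0.46 ± 0.39 for Hoxb3, 0.18 ± 0.42 for Hoxb4 and 0.48 ± 0.26 (SE) for Hoxb5, the last being the largest of the cluster.

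In Hoxb2, Hoxb3 and Hoxb4 the direction of the difference turned when single tumours were left out, and in Hoxb5 its size changed. Without TMP195 tumour 2, Hoxb2 differed by -0.37, Hoxb3 by -0.0062 and Hoxb4 by -0.17. Without vehicle tumour 2, Hoxb2 differed by -0.33 and Hoxb4 by -0.16, and Hoxb3 stayed above 0 at 0.26. With both left out the differences were -1.04, -0.20 and -0.52. Hoxb5 was 0.28 without vehicle tumour 2, 0.30 without TMP195 tumour 2 and 0.11 without both. The mean of the 4 genes was 5.80, 6.78 and 5.20 in TMP195 tumours 1 to 3, against 5.90, 4.86 and 5.93 in vehicle tumours 1 to 3.

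Elsewhere in the Hoxb cluster the ranges were narrower, although Hoxb9 had the same highest and lowest tumours. So did Hoxc4 of the Hoxc cluster, which was dim and had a range of 0.19. The share of all genes with these extremes was not counted. Hoxb1, at the head end, and Hoxb6 had ranges of 0.40 each, and the 6 genes flanking the cluster had ranges of 0.27 to 0.48. Hoxb7, which has been linked to growth of human breast cancer cells, was 4.15, 4.05 and 3.86 in TMP195 tumours, against 4.42, 4.35 and 4.14 in vehicle tumours. Its difference was -0.28 ± 0.12 (SE), and the groups overlapped, with TMP195 tumour 1 just above vehicle tumour 3. The row shared by Hoxb8 and Hoxb7 ran the other way: it was 4.55, 4.64 and 4.27 in TMP195 tumours, against 4.40, 4.26 and 4.53 in vehicle tumours, a difference of 0.091. Hoxb13, a tail-end gene known from the prostate, was dim and differed by -0.10 ± 0.12 (SE).

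**Figure D4:**
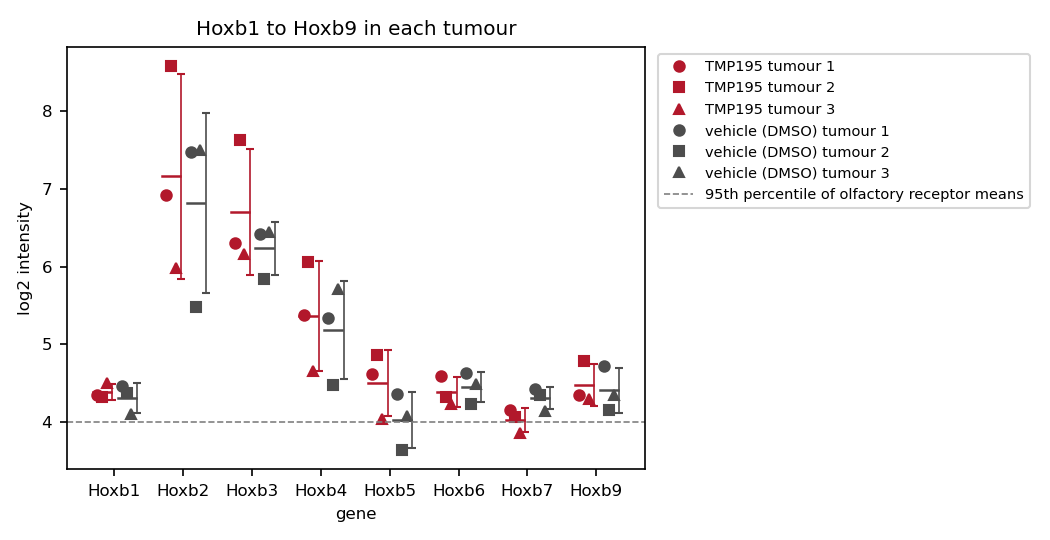
Log2 intensity of Hoxb1 to Hoxb9 in each tumour, TMP195 in red left of vehicle in grey, with the group mean and whiskers of 1 SD (n = 3). The dashed line is the olfactory 95th percentile, 3.99. In Hoxb2 to Hoxb5 the red square, TMP195 tumour 2, is highest and the grey square, vehicle tumour 2, is lowest.

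The Hoxc cluster showed smaller ranges, from 0.19 to 0.83. Hoxc8, which helps to place the mammary buds in the mouse embryo, was 5.45, 5.88 and 5.24 in TMP195 tumours, against 5.98, 5.32 and 5.52 in vehicle tumours, and differed by -0.08 ± 0.22 (SE). Hoxc6 differed by 0.05 ± 0.17 and Hoxc10 by 0.03 ± 0.26. The largest difference of the cluster was that of Hoxc12, which was 3.33, 3.10 and 3.61 in TMP195 tumours, against 3.12, 2.92 and 2.91 in vehicle tumours. It differed by 0.36 ± 0.15 (SE), with an unadjusted p of 0.042 and an adjusted p of 1.00 in limma, but all 6 values were at or below 3.99 and the groups overlapped. Hoxc13, a gene of hair and nail growth, was dim and differed by -0.20 ± 0.14 (SE).

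The Hoxd cluster was the flattest of the clusters, with differences from -0.062 to 0.13 and a median of -0.016. The largest was that of Hoxd13, a gene of the distal limb, which was 3.59, 3.29 and 3.50 in TMP195 tumours, against 3.37, 3.31 and 3.32 in vehicle tumours. It differed by 0.13 ± 0.10 (SE) and was dim. Hoxd10, whose product restrains migration of human breast cancer cells, differed by 0.12 ± 0.10 (SE) and was dim as well. Hoxd8 and Hoxd11, the Hoxd genes that were not dim, differed by -0.06 ± 0.17 and -0.06 ± 0.18 (SE).

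Copies of a paralogue group in different clusters differed in mixed directions in groups 4, 5 and 6. Hoxa5 differed by -1.26 and Hoxb5 by 0.48, while Hoxc5 was 4.10, 4.01 and 4.0 in TMP195 tumours, against 4.41, 3.95 and 4.08 in vehicle tumours, a difference of -0.11 ± 0.13 (SE). In group 6, Hoxa6 differed by -0.42, Hoxb6 by -0.07 and Hoxc6 by 0.05. In group 4, Hoxa4 differed by -0.10, Hoxb4 by 0.18, Hoxc4 by 0.04 and Hoxd4 by 0.0038. In group 7, Hoxa7 differed by -0.30 and Hoxb7 by -0.28 on its own row, with the shared row running the other way.

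Group 9 is the one tied most closely to the mammary gland, since mice that lack Hoxa9, Hoxb9 and Hoxd9 together fail to grow the gland in pregnancy. Hoxb9 was 4.34, 4.79 and 4.30 in TMP195 tumours, against 4.71, 4.14 and 4.35 in vehicle tumours, and it was highest in TMP195 tumour 2 and lowest in vehicle tumour 2, like Hoxb2 to Hoxb5. Hoxc9 was 4.74, 4.48 and 4.58 in TMP195 tumours, against 4.70, 4.48 and 4.72 in vehicle tumours. Hoxa9 was 3.68, 3.63 and 3.79 in TMP195 tumours, against 3.70, 3.58 and 3.72 in vehicle tumours, all at or below 3.99. Hoxd9, dim on average, was 3.39, 3.70 and 3.74 in TMP195 tumours, against 3.28, 4.04 and 3.56 in vehicle tumours. The 4 differences lay between -0.03 and 0.07, with 95% intervals as wide as -0.50 to 0.47 for Hoxd9 and as narrow as -0.19 to 0.26 for Hoxa9. Groups overlapped in all 4 genes. Single tumours turned the sign of each: leaving out 1 tumour at a time gave -0.085 to 0.23 for Hoxb9, -0.19 to 0.19 for Hoxd9, -0.11 to 0.030 for Hoxc9 and -0.011 to 0.069 for Hoxa9. Hoxb9 differed by -0.085 without TMP195 tumour 2, by -0.059 without vehicle tumour 2 and by -0.22 without both.

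Over all 37 Hox genes 18 were lower and 19 higher under TMP195, with a median difference of 0.0038, beside -0.0014 over all 19937 genes. Medians by cluster were -0.093 for Hoxa, 0.077 for Hoxb, 0.027 for Hoxc and -0.016 for Hoxd. In limma 0 of 37 Hox genes and 0 of all genes (0%) passed an adjusted p of 0.05, and the smallest adjusted p over all genes was 1.00. With Hoxa5, the gene known beforehand, left aside, 2 of 36 Hox genes were at an unadjusted p under 0.05, or 5.56%, beside 2.52% of all genes. Hoxa6 was lower, as were 1.34% of all genes at that p, and Hoxc12 was higher, as were 1.18%. The number of arrays limits the precision: the median half-width of a gene's 95% interval was 0.30.

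**Figure D5:**
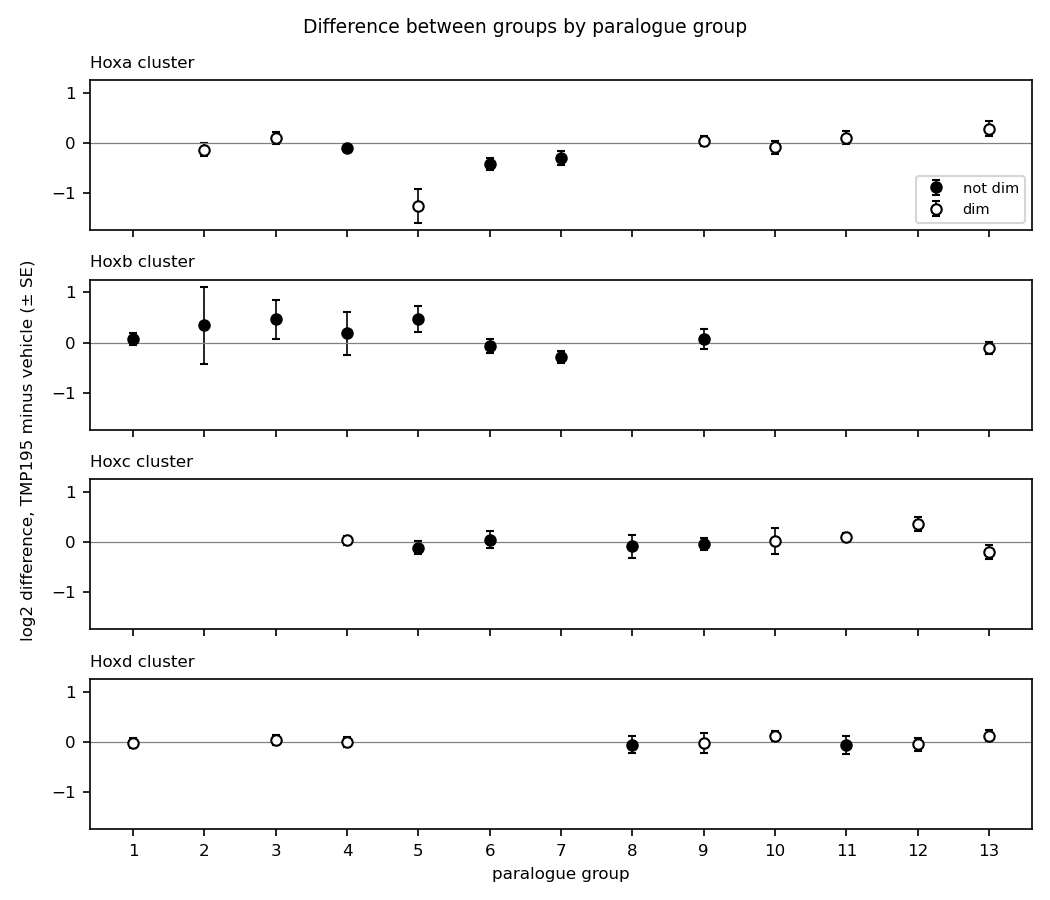
Log2 difference, TMP195 minus vehicle, of each measured Hox gene by cluster and paralogue group, with whiskers of 1 SE from limma. Open circles are the 20 dim genes. Hoxa5 lies at -1.26, Hoxa6 and Hoxa7 lie below 0, and Hoxb2 to Hoxb5 lie above 0 with wide errors.

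The clusters also hold microRNA genes. The mature forms made from the clusters' miR-10 and miR-196 genes, which are known to act on Hox transcripts, are shown with the seed, bases 2 to 8, in capitals, because their genes share the clusters' neighbourhoods and their precursors had rows on the array. The sequences are those of RefSeq (GRCm38.p6).
miR-10a-5p: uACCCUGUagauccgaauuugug
miR-10b-5p: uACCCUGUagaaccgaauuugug
miR-196a-5p: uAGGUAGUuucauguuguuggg
miR-196b-5p: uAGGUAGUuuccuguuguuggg
The miR-10 pair share the seed ACCCUGU and the miR-196 pair the seed AGGUAGU. Array rows report the gene's primary or precursor transcript and not the mature form. Of 10 measured RNAs of the clusters, these genes included, 8 were dim. Mir196b, which lies between Hoxa9 and Hoxa10, was 2.75, 2.82 and 2.89 in TMP195 tumours, against 2.90, 3.05 and 2.94 in vehicle tumours. It and Haglr, a long RNA of the Hoxd cluster, with a difference of -0.24 ± 0.10 (SE), were lower without overlap, 2 of 10 cluster RNAs beside 3.21% of all genes, and both were dim. Neither passed the test over all genes. The RNAs that were not dim, Mir615 in the Hoxc cluster and Hoxd3os1 in the Hoxd cluster, differed by -0.07 ± 0.09 and -0.02 ± 0.17 (SE).

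Cofactors of the HOX proteins were compared from a list of 9 TALE genes, 8 of them measured and none dim. Of these, 5 were lower and 3 higher under TMP195, with a median of -0.020, and 0 passed the test over all genes. Meis1 was 9.37, 7.10 and 9.46 in TMP195 tumours, against 8.93, 9.42 and 9.21 in vehicle tumours, a difference of -0.55 ± 0.60 (SE) in which TMP195 tumour 2 was the lowest by far. Meis2 was 5.59, 4.91 and 5.02 in TMP195 tumours, against 5.31, 6.04 and 5.69 in vehicle tumours, a difference of -0.51 ± 0.24 (SE) with overlap. Pknox1 was 6.65, 6.79 and 6.81 in TMP195 tumours, against 6.95, 7.14 and 6.90 in vehicle tumours, a difference of -0.25 ± 0.10 (SE). It was the 1 TALE gene of 8 whose groups did not overlap, beside 6.68% of all genes.

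Genes of the complexes that hold Hox clusters silent or active were compared next. Of 21 measured Polycomb genes 12 were lower and 9 higher, with a median of -0.017, and the largest differences were those of Bmi1 (0.23 ± 0.20), Scmh1 (0.20 ± 0.12) and Phc3 (0.20 ± 0.14, SE). Bmi1, a subunit of the Polycomb repressive complex that marks histone H2A, was highest in TMP195 tumour 2, at 9.10. Groups did not overlap in 1 of the 21, Phf19 (0.15 ± 0.09, SE), a share below the 6.68% of all genes. Of 14 measured Trithorax and H3K27 demethylase genes 5 were lower and 9 higher, with a median of 0.024. Among these Dpy30 differed by -0.17 ± 0.16, Kmt2a by 0.12 ± 0.19 and Kmt2d by 0.12 ± 0.19 (SE), and 0 genes of either list passed the test over all genes.

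Genes of retinoic acid signalling were next, since that signal induces the head-end Hox genes. Of 17 measured 8 were lower and 9 higher, with a median of 0.0019. Aldh1a3, an enzyme that makes retinoic acid, was 6.93, 8.02 and 6.67 in TMP195 tumours, against 6.59, 6.78 and 6.79 in vehicle tumours. Crabp1, which binds retinoic acid in the cell, was 7.61, 8.44 and 7.92 in TMP195 tumours, against 7.76, 7.77 and 7.64 in vehicle tumours. Dhrs3, a retinaldehyde reductase, was 9.03, 9.51 and 8.91 in TMP195 tumours, against 8.96, 8.97 and 9.0 in vehicle tumours. In each of these 3 genes TMP195 tumour 2 was the highest of the 6, while vehicle tumour 2 was not the lowest. The 3 were named for the size of their group difference. TMP195 tumour 2 was also the tumour with 150 genes more than 2-fold above every other tumour. None of the retinoic acid genes passed the test over all genes, and the part of retinoic acid in the Hoxb pattern was not tested.

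Relatives of the Hox genes outside the clusters were mostly dim, 6 of 9 measured ParaHox, Evx and Mnx genes. Cdx1, which regulates Hox genes in the embryo, was 4.78, 4.61 and 4.73 in TMP195 tumours, against 4.36, 4.04 and 4.55 in vehicle tumours. It was higher in every TMP195 tumour, as 1 of 9 genes of its list beside 3.47% of all genes, by 0.39 ± 0.14 (SE), with an unadjusted p of 0.029 and an adjusted p of 1.00 in limma. Gsx1 and Evx2 differed by 0.10 ± 0.15 and 0.04 ± 0.15 (SE).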

How the data were processed

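Whole tumours from 6 mice, 3 dosed with TMP195 and 3 with vehicle, had been profiled on Affymetrix arrays, and each tumour was grouped by its title. The deposited values are array signal intensity, 1 column per tumour and 27359 rows, which the submitters' processing notes say the authors made by RMA with Affymetrix Power Tools. The sources used here give no versions, filters or scale. The values were taken as linear because all were above 0 and column maxima reached 8137 to 8873. Whether rows were centred is not stated. RMA in its usual form includes quantile normalization, after which a shift of most genes one way would not be visible. Background correction leaves differences of dim rows less certain.

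Rows were named through the platform annotation and RefSeq symbols (GRCm38.p6). 21784 rows named 1 gene, 1620 several and 3955 none, and for each of 19937 genes the row with the highest mean was kept. Entrez IDs of 21693 rows matched, with 0 symbols changed. The difference TMP195 minus vehicle in log2 was tested two-sided by limma 3.58.1 (R 4.3.3), and p-values were adjusted by Benjamini and Hochberg's method across the 19937 genes. Prior and residual degrees of freedom were 2.93 and 4. The smallest p of an exact permutation of 3 against 3 is 0.1, so none is given. The fit was tested on simulated data with known changes. Plots and counts used Python 3.11.15, pandas 2.3.3, numpy 2.4.6 and matplotlib 3.10.9.

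The members and lists were chosen with earlier results of these data known. Values in every tumour are given for Hoxa5, for genes whose groups do not overlap, for the largest difference in each cluster, for groups 5 and 9 and for ranges of at least 1. From each further list up to 3 genes that were not dim and differed most are named. Hoxa3, Hoxb7, Hoxc8, Skap2, Mir196b, Haglr, Phf19 and the other genes given beyond that rule were chosen after their values were seen. Deviations of same-numbered tumours from their group means had correlations across genes of -0.21, -0.063 and -0.097 for numbers 1, 2 and 3. With 3 tumours per group these correlations constrain each other and cannot exclude a pairing by number. The reported fit used no pairing.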

Additional observations from a re-analysis of the deposited data

How the results depend on the processing

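Hoxa4, Hoxa5, Hoxa6 and Hoxa7 were the genes without overlap under median centring, log2(value + 16) and averaging of rows too. Hoxa5 was no longer among them, leaving 3, both with dim genes left out (below the 30th percentile of mean intensity), which drops its row, and with low values raised to the olfactory threshold, an alternative chosen after seeing the data. The Hoxa5 difference was -0.57 with log2(value + 16) and -0.44 with that floor. Leaving out each tumour gave -1.58 to -1.06 for Hoxa5, -0.029 to 0.023 for the median over Hox genes and 6 to 8 genes without overlap, when 14 to 18.5% of all genes did not overlap because fewer values were compared. That count was 7 without TMP195 tumour 1 or vehicle tumour 2 and 8 without TMP195 tumour 2 or vehicle tumour 1. Without both tumours numbered 2 the median was -0.037 and 15 genes did not overlap (28.8% of all genes), and with dim genes left out the median was -0.056. With the replicate number as a block, 8 Hox genes had the same sign in all pairs (18% of all genes). Under that block 3 of 37 Hox genes were at an unadjusted p under 0.05 in limma, beside 397 of 19937 genes. The reported fit, which has no block, also gave 3 Hox genes, beside 502 of 19937. The count of Hox genes at that p was 1 with the floor, beside 397 of 19937 genes. It was 2 to 4 without single tumours, beside 503 to 669 of 19937 genes. Hoxa5, which prompted the choice of the family, is part of these counts wherever its p was under 0.05. They are therefore no test of the family. In limma 0 genes passed an adjusted p of 0.05 under every alternative run, with 502 of 19937 genes at an unadjusted p under 0.05 in the reported fit, 243 of 13956 with dim genes left out and up to 742 elsewhere. The smallest adjusted p of any alternative was 0.158, without both tumours numbered 2. The 4 differences from Hoxb2 to Hoxb5 changed with the tumours numbered 2 as given above. Signal over background is a further limit beside the number of arrays: 20 of the 37 rows, Hoxa5 included, lay at or below the olfactory threshold. Rows above it can still be background, as described with Sry.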
